A study of Mus musculus with 6 samples.

Results

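Bone morphogenetic protein (BMP) and transforming growth factor beta (TGF-beta) genes were examined in sorted CD31+ cells from 3 tissues of mouse embryos. The 53 members were fixed by name from knowledge of the pathway: 15 ligands, 12 receptors and co-receptors, 11 Smads and Smad regulators, 9 antagonists and extracellular regulators, and 6 target genes. All 53 had a probe set annotated to them alone and are among the 18193 genes measured. The members and their classes were listed with earlier results of these arrays known, so their counts below describe them beside all genes and test no list.

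The cells were freshly isolated at embryonic day 9.5 from the heart tube, the yolk sac and the caudal-half region of the embryo, called caudal tissue here (CH on the plots of levels). Animals of all groups were of a mixed background, and the sample codes contain "Wt", with no allele, transgene or treatment named. Cells were sorted for surface CD31 and against CD41 and CD45, which enriches endothelium and removes many early blood cells. Each tissue has 2 independent biological replicates on 1 Affymetrix array each, 6 arrays in all, and the number of embryos behind an array is not stated by the labels. P-values therefore rest on the spread between 2 biological replicates in each tissue. That spread was pooled over the 3 tissues and drawn by limma toward the spread typical of all genes. A level is the authors' RMA value of a probe set: the natural log of its deposited signal was taken as log2. If the deposited signals are linear instead, every difference and standard error is larger by a factor of 1.44 while limma's p-values stay the same.

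BMP and TGF-beta ligands are secreted dimers that bring together type I and type II serine/threonine kinase receptors. The activated type I receptor phosphorylates receptor Smads, which enter the nucleus with Smad4. BMP receptors act mainly through Smad1, Smad5 and Smad9, and TGF-beta and activin receptors mainly through Smad2 and Smad3. In the early heart these signals drive endocardial cells into the mesenchyme of the valve cushions. In vessels the endothelial type I receptor encoded by Acvrl1 and the co-receptor endoglin, encoded by Eng, hold vessel growth and calibre in check.

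Over the 18193 genes, r was 0.985 to 0.989 between replicate arrays, against 0.948 to 0.970 across tissues. The median absolute difference between replicates was 0.18 for the members and 0.22 for all genes, and no array stood apart. Of the 12 pan-endothelial marker genes, none had a tissue mean within the range of the bacterial control probe sets (1.33 to 4.03; called the bacterial range here) in any tissue, and Pecam1, the gene of the sort antigen CD31, had a level of 9.55 ± 0.08 (SD, n = 2), 9.95 ± 0.18 and 9.96 ± 0.19 in heart tube, caudal tissue and yolk sac. Itga2b, the gene of CD41, which was sorted against, was above the bacterial range in every tissue (6.87, 6.61 and 8.28) and called higher in the yolk sac than in both others, while Ptprc, the gene of CD45, was within that range throughout. The summed linear level of the pan-endothelial markers was lowest in the heart tube, at 9352 to 10441 on its arrays against 14211 to 15389 in caudal tissue and 17838 to 17874 in the yolk sac. Summed levels of the 9 measured visceral endoderm markers were 244 on both heart tube arrays, 280 to 339 in caudal tissue and 20413 to 21277 in the yolk sac. These are bulk samples, in which fewer cells of a type and less RNA per cell cannot be told apart.

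**Figure D1:**
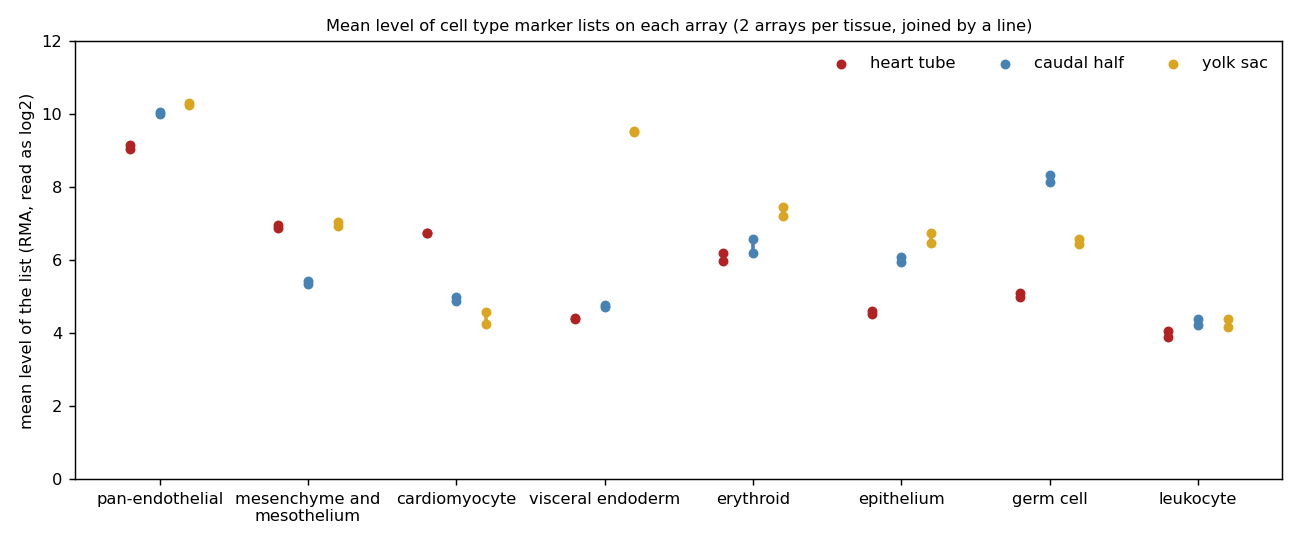
Mean level of 8 lists of cell type markers on each array (vertical axis, RMA value read as log2), with 2 arrays per tissue joined by a line. Within a list, visceral endoderm markers were highest in the yolk sac (9.52 and 9.56), germ cell markers in caudal tissue (8.14 and 8.34) and cardiomyocyte markers in the heart tube (6.74 and 6.76), whereas pan-endothelial markers were lowest in the heart tube (9.04 and 9.16).

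The tissues were compared in pairs with limma over all genes, and a gene is called where its Benjamini-Hochberg adjusted p is under 0.05. Between heart tube and caudal tissue, 12 of the 53 members were called with the heart tube above and 2 with it below, where 2.86% and 2.65% of all genes were called. Between heart tube and yolk sac, 14 members were called with the heart tube above and 4 with it below, beside 5.14% and 6.67% of all genes. Between caudal tissue and yolk sac, 6 members were higher in caudal tissue and 7 lower, beside 4.22% and 4.86%. In all, 24 members (45.3%) were called at least once, beside 16.5% of all genes, and 29 were called in no comparison. The median difference of the members was 0.15, 0.18 and 0.08 in the 3 comparisons, and that of all genes -0.08, -0.06 and 0.02. The 3 comparisons share arrays and are not independent of each other.

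**Figure D2:**
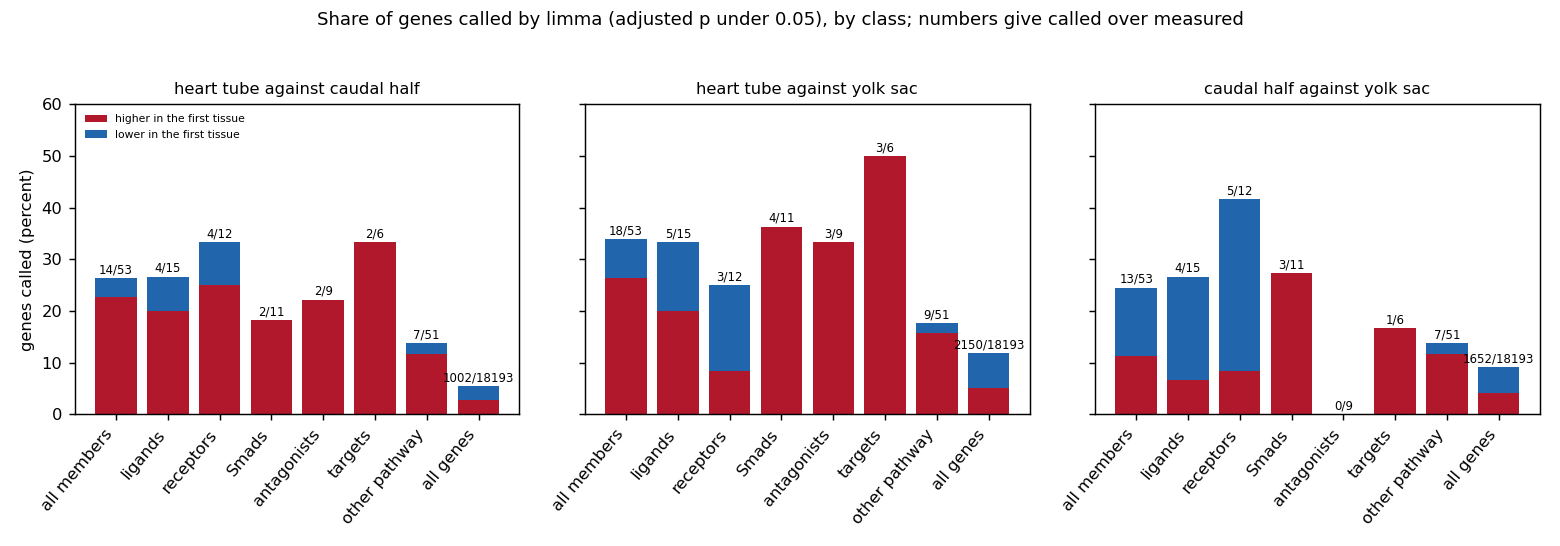
Percent of genes called by limma (vertical axis, adjusted p under 0.05) for all members, each class, other pathway genes and all genes, in the 3 comparisons, with called over measured genes above each bar. For heart tube against yolk sac 18 of 53 members and 2150 of 18193 genes were called, and all 10 called Smads, antagonists and targets were higher in the heart tube.

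Against both other tissues at once, 9 members were called higher in the heart tube (Bmper, Bmpr1a, Id2, Inhba, Ltbp1, Smad6, Smad7, Tgfb2 and Tgfbi), where 1.68% of all genes met that rule. Acvrl1 was the 1 member called lower in the heart tube against both (1.49% of all genes). In the yolk sac Acvrl1, Bmp5 and Tgfbr2 were higher than in both (3.18%), and Bmpr1a, Pmepa1, Skil, Smad3 and Smad7 were lower (1.78%). Gdf3 was the member higher in caudal tissue than in both (0.929%), and Bmp2 and Eng were lower there (0.813%).

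**Figure D3:**
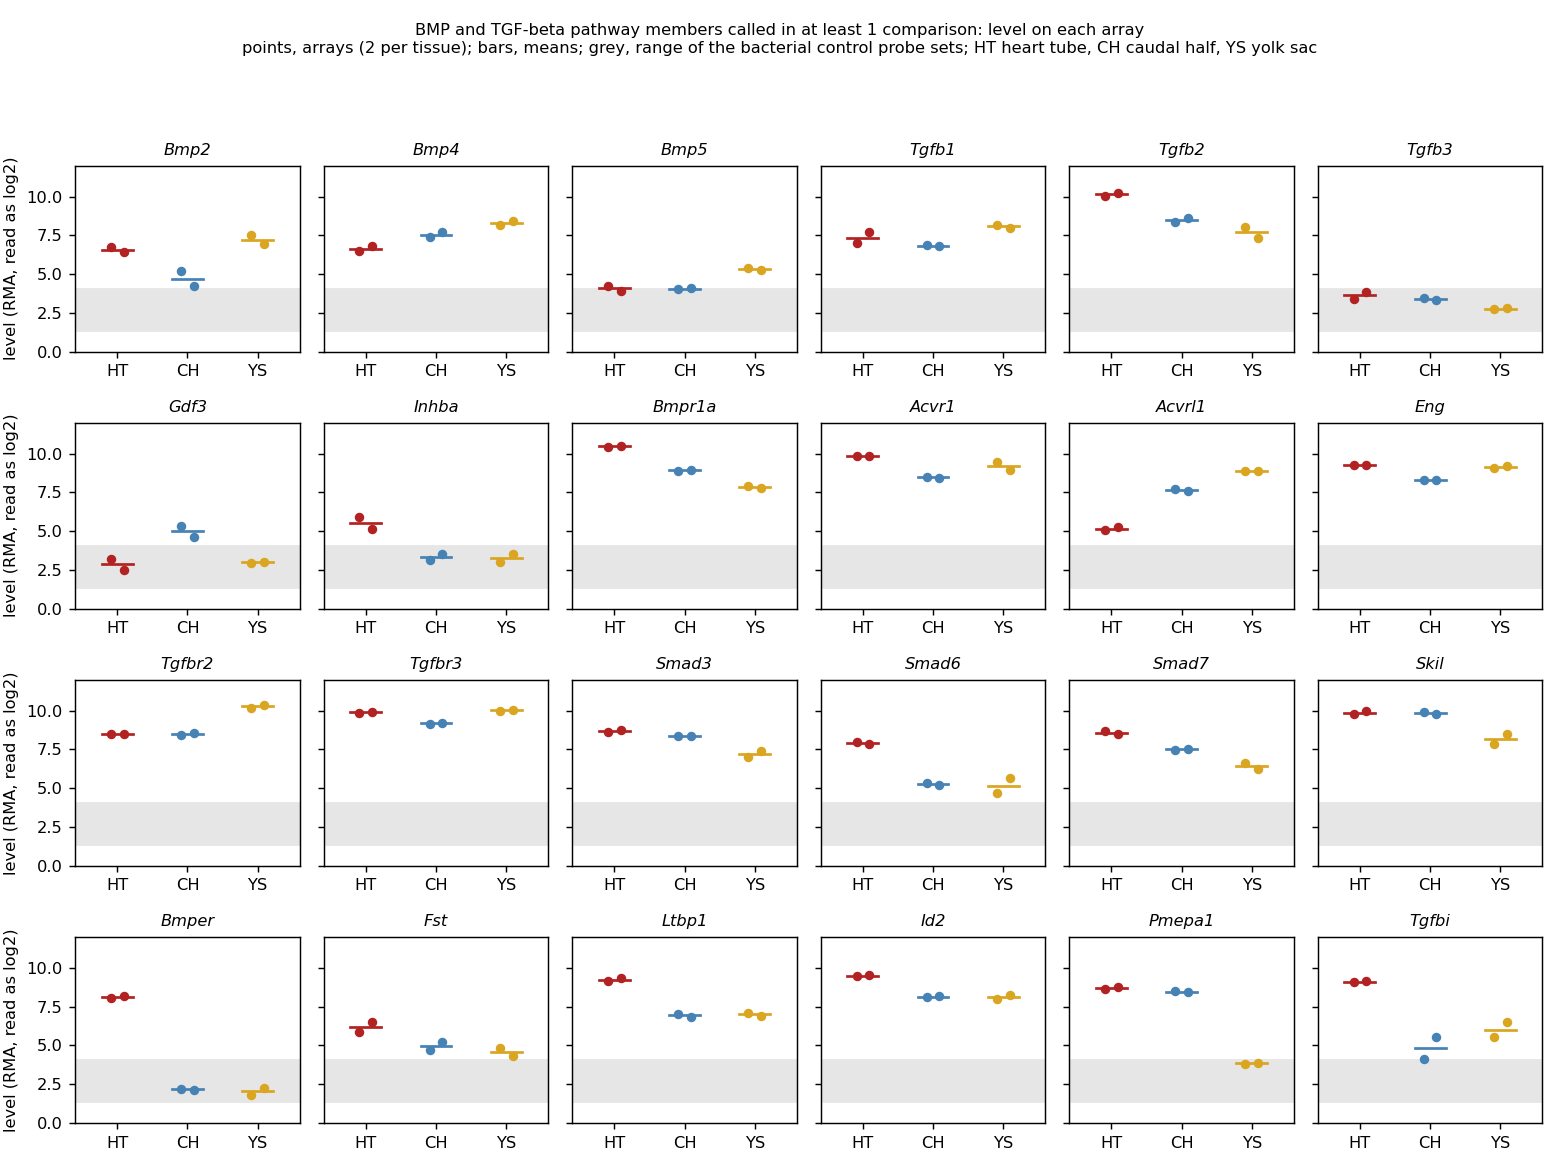
Level on each of the 6 arrays (vertical axis, RMA value read as log2) of the 24 members called in at least 1 comparison. Points are arrays, bars are means of 2, and the grey band is the range of the bacterial control probe sets. The 2 heart tube arrays of Bmper stand at 8.06 and 8.16 while its other 4 arrays lie inside the band.

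Among the TGF-beta ligands, Tgfb2, which is needed for normal cushion and outflow tract formation, was highest in the heart tube. Its arrays read 10.07 and 10.24 in the heart tube, 8.33 and 8.60 in caudal tissue, and 8.03 and 7.34 in the yolk sac. The heart tube arrays were above all others, by 1.69 ± 0.26 (SE; limma adjusted p = 0.0173) over the caudal tissue and by 2.47 ± 0.26 (limma adjusted p = 0.00238) over the yolk sac, and all 4 probe sets of the gene had the same direction. For caudal tissue over yolk sac 1 dimmer probe set of Tgfb2 was called (1.01 ± 0.22, limma adjusted p = 0.0495 over 34945 named probe sets, of which 6.92% were called) and the representative was not (0.78). Inhba encodes the subunit of activin A. It read 5.91 and 5.16 in the heart tube, 3.15 and 3.54 in caudal tissue and 3.02 and 3.52 in the yolk sac, so that both other tissues were within the bacterial range. The differences were 2.19 ± 0.31 and 2.27 ± 0.31 (limma adjusted p = 0.0132 and 0.00652), although its second, dimmer probe set read lower in the heart tube, at -0.35 and -0.63, without a call. Tgfb1, the most widely studied form of the growth factor, had its highest arrays in the yolk sac, at 8.20 and 7.96, against 6.86 and 6.79 in caudal tissue (-1.25 ± 0.26 for caudal tissue minus yolk sac, limma adjusted p = 0.0349) and 6.98 and 7.70 in the heart tube. Tgfb3 stayed within the bacterial range on all arrays (2.76 to 3.86), and its call of 0.86 for heart tube over yolk sac rests on that weak signal.

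Of the BMP ligands, Bmp2, Bmp4 and Bmp5 were called in at least 1 comparison. Bmp4, a ligand of mesoderm formation and of blood and vessel development in the yolk sac, read 6.48 and 6.78 in the heart tube, 7.42 and 7.69 in caudal tissue and 8.14 and 8.40 in the yolk sac. The 3 tissues did not overlap, and the heart tube was below the yolk sac by 1.64 ± 0.20 on the log2 scale (limma adjusted p = 0.00449). The neighbouring steps, -0.92 for heart tube minus caudal tissue and -0.72 for caudal tissue minus yolk sac, missed the threshold (limma adjusted p = 0.0570 and 0.0846). Bmp2, which in the heart comes from the muscle wall of the cushion-forming region, had heart tube levels of 6.72 and 6.43 and yolk sac levels of 7.54 and 6.92 but caudal levels of 5.17 and 4.22. The caudal arrays were below the others (1.88 ± 0.36 for heart tube minus caudal tissue, limma adjusted p = 0.0366, and -2.53 ± 0.36 for caudal tissue minus yolk sac, limma adjusted p = 0.0103). Bmp5 was near the upper end of the bacterial range in the heart tube (4.21 and 3.94) and caudal tissue (4.02 and 4.08) and higher in the yolk sac (5.37 and 5.29), by 1.25 and 1.28.

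Gdf3, a ligand of pluripotent and early embryonic cells, read 5.35 and 4.64 in caudal tissue. In the heart tube it read 3.20 and 2.53 and in the yolk sac 2.94 and 3.04, both within the bacterial range. The caudal level was above the heart tube by 2.13 and above the yolk sac by 2.00 ± 0.31 (limma adjusted p = 0.0147 and 0.0137). Germ cell markers were also highest in caudal tissue, with 4 of 5 measured genes called lower in the heart tube and 3 of 5 in the yolk sac and summed levels of 3183 to 3654 against 704 to 749 and 2473 to 2509, and their part in the Gdf3 difference was not tested. Summed neural levels were also highest in caudal tissue, at 929 to 950 against 447 to 501 (heart tube) and 494 to 527 (yolk sac). Paraxial mesoderm levels were 252 to 254, 118 to 144 and 93 to 113 in that order. Caudal tissue was called higher than each other tissue in 2 of 6 neural markers. For paraxial mesoderm, 2 of 6 markers were called above the yolk sac and 0 above the heart tube. The part of both lists in the Gdf3 difference was also not tested. Of the other ligands, Bmp10, Gdf10 and Gdf11 were within the bacterial range in every tissue, and Bmp7 in all but the yolk sac. Bmp6, whose heart tube arrays (7.31 and 7.75) were above the other 4 (5.91 to 7.00), Inhbb (3.85 to 4.64) and Nodal (4.93 to 5.71) were called in no comparison.

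Type I receptors differed in both directions. Acvrl1, the receptor of endothelium mutated in hereditary haemorrhagic telangiectasia, read 5.08 and 5.25 in the heart tube, 7.70 and 7.56 in caudal tissue and 8.88 and 8.87 in the yolk sac. All 3 tissues were apart and all 3 comparisons were called, with the heart tube lower by 2.47 ± 0.17 than the caudal tissue (limma adjusted p = 0.000966) and lower by 3.71 ± 0.17, or 13.1-fold, than the yolk sac (limma adjusted p = 0.000143). Bmpr1a, the BMP type I receptor that cushion formation requires, ran the other way: 10.45 and 10.48 in the heart tube, 8.91 and 8.94 in caudal tissue, and 7.91 and 7.79 in the yolk sac. Its heart tube level was higher by 1.55 ± 0.16 and by 2.62 ± 0.16 (limma adjusted p = 0.00378 and 0.000298), and the caudal tissue was higher than the yolk sac by 1.07 ± 0.16 (limma adjusted p = 0.0113). All 6 of its probe sets had the same direction in both heart tube comparisons, and the dimmest turned to -0.11 between caudal tissue and yolk sac. Acvr1, a further BMP type I receptor, read 9.86 on both heart tube arrays, 8.49 and 8.44 in caudal tissue and 9.46 and 8.95 in the yolk sac, and was called only for heart tube against caudal tissue (1.39 ± 0.21, limma adjusted p = 0.0164). Acvr1b (6.95 to 7.39) and Tgfbr1 (8.74 to 9.14), type I receptors for activins and TGF-beta, were called nowhere, and Bmpr1b was within the bacterial range throughout.

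Eng, the endothelial co-receptor that works with the product of Acvrl1, did not follow it. Its heart tube arrays read 9.25 and 9.26 and its yolk sac arrays 9.09 and 9.18, with the caudal tissue lower at 8.27 and 8.32 (0.96 ± 0.16 for heart tube minus caudal tissue, limma adjusted p = 0.0207). For heart tube minus yolk sac the Eng difference was 0.12 ± 0.16. Tgfbr3, the co-receptor betaglycan, was likewise lowest in caudal tissue, with 9.87 and 9.95, 9.14 and 9.23, and 9.98 and 10.05 in heart tube, caudal tissue and yolk sac, called between the last pair (-0.83 ± 0.16, limma adjusted p = 0.0258). Tgfbr2, the TGF-beta type II receptor, had heart tube levels of 8.48 and 8.50 and caudal levels of 8.42 and 8.59 but yolk sac levels of 10.17 and 10.39. The yolk sac was therefore above both, by 1.79 ± 0.17 and 1.78 ± 0.17 (limma adjusted p = 0.00166 and 0.00284). The other type II receptors, Bmpr2, Acvr2a and Acvr2b, were called nowhere by their representative probe sets. For Acvr2b, an activin receptor, that probe set differed by 0.61 for heart tube minus yolk sac and 0.66 for caudal tissue minus yolk sac. Both dimmer probe sets of Acvr2b were called with the yolk sac lower, 1 by 2.37 ± 0.21 and 2.18 ± 0.21 (limma adjusted p = 0.00170 and 0.00397 over named probe sets) and the other by 1.04 ± 0.19 and 1.38 ± 0.19 (limma adjusted p = 0.0223 and 0.0122). Bmpr2 differed by 0.57 between heart tube and caudal tissue (95% interval 0.17 to 0.98, unadjusted) and by -0.01 between heart tube and yolk sac (-0.41 to 0.40).

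In both heart tube comparisons Acvrl1 was lower (-2.47 and -3.71), and so was the pan-endothelial marker list by its median. Of its 12 genes, 5 were called lower and 0 called higher for heart tube against caudal tissue, and 8 and 0 for heart tube against yolk sac, with median differences of -0.77 and -0.93. The largest differences in the list were those of Cldn5 (-3.40 and -3.54) and Robo4 (-2.31 and -2.87), all called. Tek was 0.78 above the caudal tissue and Emcn 0.44 above the yolk sac in the heart tube, both without a call. Between caudal tissue and yolk sac 1 was called higher and 1 lower, with a median of -0.24, where Acvrl1 was called at -1.24. The part of that list in the Acvrl1 differences was not tested. Eng, also an endothelial gene, differed the other way between heart tube and caudal tissue, as given above.

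**Figure D4:**
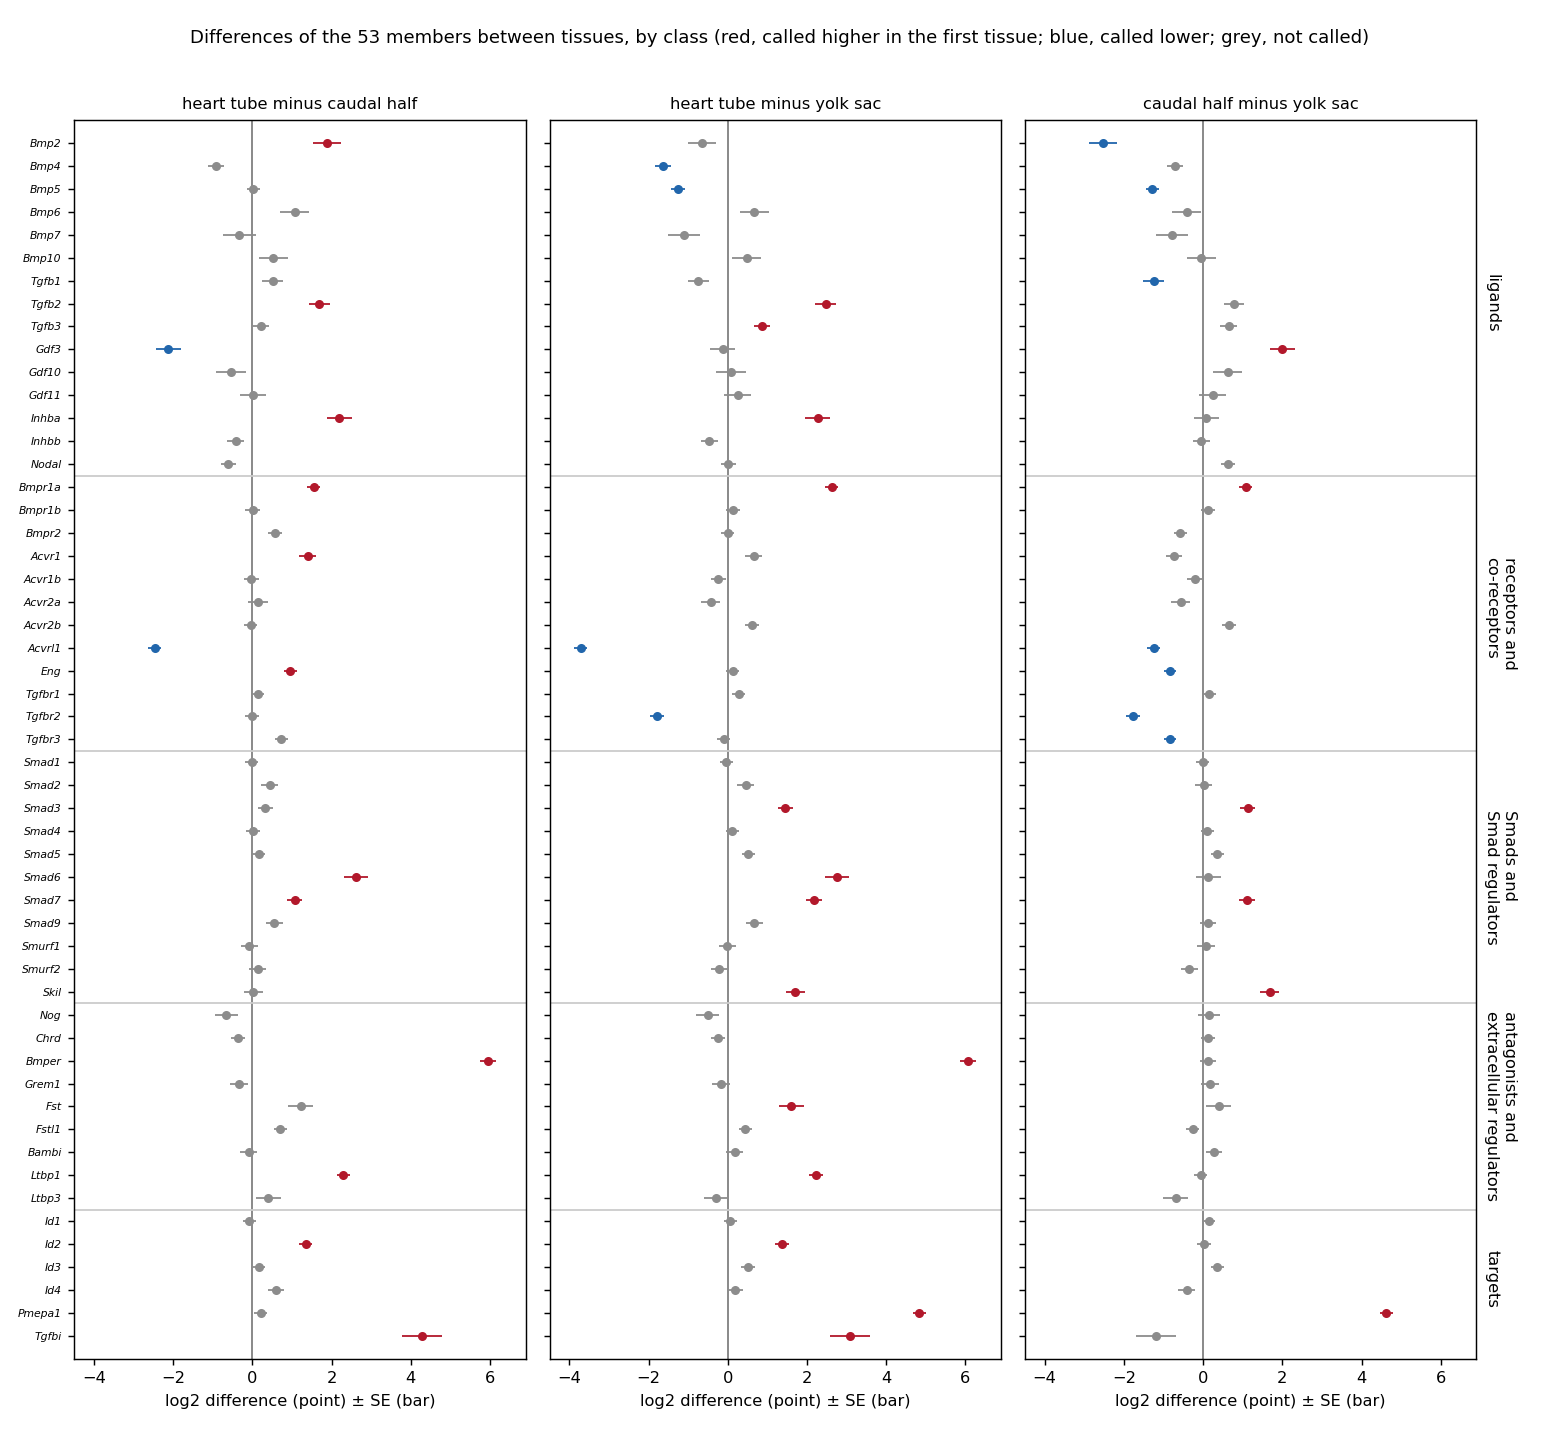
Difference in level between tissues (horizontal axis, log2; point) with its standard error (bar) for all 53 members, grouped by class. Red marks members called higher in the first tissue and blue those called lower. Acvrl1 and Bmpr1a lie on opposite sides in the heart tube comparisons (-3.71 and 2.62 against the yolk sac), and no antagonist was called between caudal tissue and yolk sac.

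Among the Smads the inhibitory members differed most. Smad6 and Smad7 encode feedback inhibitors that are themselves induced by the signal, Smad6 acting mainly on the BMP branch. Smad6 read 7.99 and 7.84 in the heart tube, 5.37 and 5.23 in caudal tissue, and 4.70 and 5.63 in the yolk sac. The heart tube arrays were above all others, by 2.61 ± 0.31 (limma adjusted p = 0.00634) and 2.75 ± 0.31 (limma adjusted p = 0.00289). Smad7 stood at 3 separate levels, with 8.68 and 8.51 in the heart tube, 7.50 and 7.56 in caudal tissue, and 6.62 and 6.22 in the yolk sac. Each step was called, at 1.06 ± 0.20 and 1.11 ± 0.20 (limma adjusted p = 0.0317 and 0.0206), as was the whole distance of 2.17 ± 0.20 (limma adjusted p = 0.00132). The dimmer probe set of Smad7 had the same directions, and its whole distance was called (2.29 ± 0.32, limma adjusted p = 0.00849 over named probe sets). Its steps of 0.93 ± 0.32 and 1.36 ± 0.32 were not called (limma adjusted p = 0.194 and 0.0576).

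Of the signal-carrying Smads only Smad3, which transmits TGF-beta and activin signals, was called. Its arrays read 8.61 and 8.73 in the heart tube, 8.35 on both caudal arrays and 7.03 and 7.41 in the yolk sac, with the yolk sac lower by 1.45 ± 0.19 than the heart tube and by 1.13 ± 0.19 than the caudal tissue (limma adjusted p = 0.00538 and 0.0175). Skil, a repressor of Smad-driven transcription that TGF-beta induces, had the same order: 9.77 and 9.98, 9.89 and 9.82, and 7.88 and 8.47. The yolk sac was lower by 1.70 ± 0.23 and by 1.68 ± 0.23 (limma adjusted p = 0.00630 and 0.00918). Smad1 lay between 9.63 and 9.85 on all arrays, and the shared Smad4 between 9.49 and 9.76. For Smad1 the 95% intervals, unadjusted, were -0.42 to 0.37 for heart tube minus caudal tissue and -0.43 to 0.36 for heart tube minus yolk sac, so differences of that size remain possible. Smad2, Smad5, Smad9 and the ubiquitin ligase genes Smurf1 and Smurf2, whose products mark receptors and Smads for breakdown, were called nowhere, with differences from -0.35 to 0.67. For heart tube minus yolk sac, Smad9 differed by 0.67 ± 0.21 (unadjusted 95% interval 0.17 to 1.18) and Smad5 by 0.52 ± 0.16 (0.13 to 0.91), with limma adjusted p = 0.0978 and 0.0989. In the gene table of the GRCm38.p6 assembly Smad3 and Smad6 are neighbouring protein-coding genes on chromosome 9. Smad6 was called between heart tube and caudal tissue and Smad3 was not (0.32 ± 0.19). Whether they differ from each other was not tested.

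Outside the cell, the largest difference of any member was that of Bmper, a secreted protein that binds BMPs and either blocks or promotes their signal. It read 8.06 and 8.16 in the heart tube, 2.20 and 2.13 in caudal tissue and 1.82 and 2.27 in the yolk sac. The differences were 5.94 ± 0.20 and 6.07 ± 0.20 (limma adjusted p = 0.000114 and 7.48e-05), and both lower tissues were within the bacterial range, so their size depends on a signal near background. Ltbp1, which holds latent TGF-beta in the matrix, read 9.12 and 9.33 in the heart tube, 7.00 and 6.85 in caudal tissue, and 7.06 and 6.92 in the yolk sac. The heart tube was higher by 2.30 ± 0.17 and 2.23 ± 0.17 (limma adjusted p = 0.00129 and 0.000797), while the caudal tissue minus yolk sac difference was -0.06 ± 0.17.

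Fst encodes follistatin, which traps activins. Its representative probe set read 5.84 and 6.52 in the heart tube, 4.73 and 5.21 in caudal tissue and 4.84 and 4.32 in the yolk sac, and was called for heart tube over yolk sac (1.60 ± 0.31, limma adjusted p = 0.0226) but not over caudal tissue (1.21 ± 0.31, limma adjusted p = 0.0884). The second probe set differed by 3.60 ± 0.19 and 4.81 ± 0.19 (limma adjusted p = 0.000741 and 0.000152 over 34945 named probe sets, of which 4.15% and 9.78% were called). Its means of 2.93 in caudal tissue and 1.73 in the yolk sac were within the bacterial range, so the sizes of its differences depend on signal near background. It was also called for caudal tissue minus yolk sac (1.21 ± 0.19, limma adjusted p = 0.0193), where the representative probe set was not. The classic BMP antagonist genes Nog and Grem1 were within the bacterial range in every tissue and Chrd reached 4.41 at most. Between caudal tissue and yolk sac 0 of the 9 members of this class were called by limma on their representative probe sets, and 0 had an unadjusted p under 0.05. Bambi, a decoy receptor (8.40 to 9.03), Fstl1 (11.54 to 12.39) and Ltbp3 (8.72 to 10.02) were called nowhere.

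The target genes did not move together. Id1 to Id4 encode helix-loop-helix proteins that block the binding of partner factors to DNA and are widely used as readouts of BMP signalling. Id2 read 9.47 and 9.51 in the heart tube, 8.10 and 8.18 in caudal tissue and 8.00 and 8.23 in the yolk sac, higher in the heart tube by 1.34 ± 0.17 and 1.37 ± 0.17 (limma adjusted p = 0.00801 and 0.00435). Id1 lay between 7.47 and 7.73 on all arrays, with unadjusted 95% intervals of -0.47 to 0.32, -0.34 to 0.46 and -0.26 to 0.53 in the 3 comparisons. Id3 (10.13 to 10.77) and Id4 (9.32 to 10.23) were called nowhere, and their largest differences were 0.51 and 0.60.

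Pmepa1, a target and feedback inhibitor of the TGF-beta branch, read 8.62 and 8.74 in the heart tube, 8.50 and 8.44 in caudal tissue and 3.81 and 3.89 in the yolk sac, within the bacterial range. The yolk sac was lower by 4.83 ± 0.16 than the heart tube and by 4.62 ± 0.16 than the caudal tissue (limma adjusted p = 7.48e-05 and 0.000192). Its 2 dimmer probe sets gave 1.05 ± 0.20 (limma adjusted p = 0.0258 over named probe sets) and 0.37 ± 0.22 for heart tube minus yolk sac. Tgfbi, a TGF-beta-induced matrix protein of connective tissue, read 9.05 and 9.15 in the heart tube, 4.10 and 5.56 in caudal tissue, and 5.55 and 6.48 in the yolk sac. The heart tube was higher by 4.27 ± 0.50 (limma adjusted p = 0.00656) and 3.09 ± 0.50 (limma adjusted p = 0.0119), and all 4 probe sets had that direction. For caudal tissue minus yolk sac Tgfbi was not called (-1.19), while 2 dimmer probe sets were (-1.44 and -1.65, limma adjusted p = 0.0348 and 0.00635 over named probe sets), with caudal means of 3.15 and 2.40 within the bacterial range. The caudal arrays of Tgfbi differed by 1.46, the largest gap between replicates among the members.

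Markers of mesenchyme and heart muscle were highest or high in the heart tube together with these members. Of 12 mesenchyme and mesothelium markers, 7 were called higher and 0 called lower for heart tube against caudal tissue, and 4 and 4 for heart tube against yolk sac. Lum and Col1a1 differed by -1.76 and -0.63 for heart tube minus caudal tissue without a call. The summed levels of the list were 5504 to 6038 in the heart tube, 1027 to 1088 in caudal tissue and 9295 to 9445 in the yolk sac. Of 12 cardiomyocyte markers, 6 were called higher than in caudal tissue and 8 than in the yolk sac, with summed levels of 2982 to 3047, 732 to 735 and 292 to 367. Tnni3 and Nkx2-5 differed by -0.71 and -0.44 for heart tube minus caudal tissue without a call. Nkx2-5 and Ryr2 were within the bacterial range in every tissue. The part of these lists in the heart tube differences was not tested. The summed mesenchyme and mesothelium level was highest in the yolk sac. The part of that list, and of the visceral endoderm, erythroid and epithelial markers, in the yolk sac differences was also not tested. Among the yolk sac differences, Acvrl1, Bmp5 and Tgfbr2 were called higher there than in both other tissues. Bmp4 was called above the heart tube only, and Bmp2, Eng, Tgfb1 and Tgfbr3 above the caudal tissue only. Visceral endoderm markers were also high in the yolk sac, with 8 of the 9 measured markers called lower and 0 called higher in each other tissue. Summed erythroid and epithelial levels were also highest in the yolk sac. Summed erythroid levels were 1601 to 1987 in the heart tube, 2388 to 3132 in caudal tissue and 11099 to 11683 in the yolk sac, and the embryonic globin genes Hbb-bh1, Hba-x and Hbb-y were called higher in the yolk sac than in each other tissue, whereas Klf1 was called lower there than in the heart tube. Summed epithelial levels were 310 to 329, 682 to 750 and 1973 to 1976, with Krt8 and Krt18 called in the same way.

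Promoter windows were examined because 9 members were high together in the heart tube. RefSeq start sites of GRCm38.p6 were available by symbol for 38 of the 53 members and for 8 of those 9. The 250 bases before each start were searched on both strands for the letters GGCGCC, a GC-rich element bound by BMP Smads, and CAGAC, the Smad box, and matches of the 2 can share at most 1 base. Windows of Bmpr1a, Id2 and Tgfbi held GGCGCC, which 9.59% of all 32851 windows held, and those of Tgfb2, Tgfbi and both starts of Ltbp1 held CAGAC, which 42.2% held. The windows of Bmper, Smad6 and Inhba held neither. A match is a description of these letters and no evidence of binding. 4 windows with a match and that of Bmper, the member with the largest difference, are printed 5′ to 3′ on the gene's strand, ending at the base before the start, with matches in capitals.

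Id2, chr12:25096093-25096342, minus strand: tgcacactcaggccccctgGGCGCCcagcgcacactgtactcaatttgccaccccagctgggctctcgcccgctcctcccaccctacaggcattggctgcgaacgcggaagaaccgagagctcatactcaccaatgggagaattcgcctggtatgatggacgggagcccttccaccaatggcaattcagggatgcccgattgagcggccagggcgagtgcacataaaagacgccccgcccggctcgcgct
Bmpr1a, chr14:34502547-34502796, minus strand: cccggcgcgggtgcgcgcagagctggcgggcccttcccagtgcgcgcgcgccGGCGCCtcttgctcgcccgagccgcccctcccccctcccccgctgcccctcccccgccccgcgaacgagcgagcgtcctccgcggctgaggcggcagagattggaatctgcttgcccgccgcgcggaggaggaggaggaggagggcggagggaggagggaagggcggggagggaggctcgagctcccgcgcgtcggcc
Tgfbi, chr13:56609336-56609585, plus strand: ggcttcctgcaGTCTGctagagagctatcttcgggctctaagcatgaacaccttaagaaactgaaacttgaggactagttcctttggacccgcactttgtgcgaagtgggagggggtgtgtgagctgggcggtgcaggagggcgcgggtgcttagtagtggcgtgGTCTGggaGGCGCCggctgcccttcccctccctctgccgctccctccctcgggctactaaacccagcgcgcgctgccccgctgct
Tgfb2, chr1:186705990-186706239, minus strand: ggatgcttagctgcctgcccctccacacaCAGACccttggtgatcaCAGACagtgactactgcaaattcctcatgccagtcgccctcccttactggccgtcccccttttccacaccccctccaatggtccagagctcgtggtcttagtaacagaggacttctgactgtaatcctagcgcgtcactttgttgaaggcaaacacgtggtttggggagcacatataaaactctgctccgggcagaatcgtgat
Bmper, chr9:23222826-23223075, plus strand: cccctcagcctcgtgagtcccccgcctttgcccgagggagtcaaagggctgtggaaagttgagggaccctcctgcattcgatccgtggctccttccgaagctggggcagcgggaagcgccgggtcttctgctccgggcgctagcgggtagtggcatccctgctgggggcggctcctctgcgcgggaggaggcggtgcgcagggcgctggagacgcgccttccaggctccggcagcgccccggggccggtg

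In these windows GGCGCC began 231 bases before the start of Id2, 198 before that of Bmpr1a and 77 before that of Tgfbi. The Smad box, as CAGAC or on the other strand as GTCTG, began 221 and 204 bases before the start of Tgfb2 and 239 and 85 before that of Tgfbi. Over all 44 windows of members, 11 (25.0%) held the GC element and 45.5% the Smad box. The GC element was in 3 of the 16 windows of members called in at least 1 comparison (18.8%). Most of the 11 windows with it therefore belonged to members called in no comparison. The Smad box also matched in members that were not called above both other tissues in the heart tube, with 2 matches in Eng, 1 in Tgfbr2 and 1 in Bmp5.

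Other genes of the pathway were counted in the same way. Of 62 further genes listed, 51 were measured, and 7 (13.7%), 9 (17.6%) and 7 (13.7%) were called in the comparisons of heart tube with caudal tissue, heart tube with yolk sac and caudal tissue with yolk sac, beside 5.51%, 11.8% and 9.08% of all genes. Ltbp4, a relative of Ltbp1, and Thbs1, thrombospondin, which activates latent TGF-beta, had heart tube levels above the caudal tissue (by 3.97 and 3.46) and above the yolk sac (by 3.02 and 3.57), with Thbs1 in the yolk sac within the bacterial range. Chrdl1, a BMP antagonist gene, was lower than in caudal tissue (-2.12) and within the bacterial range in the heart tube. Among the intracellular regulators Tob1 (1.25), Zfyve16 (1.08) and the Smad corepressor gene Tgif1 (1.07) had heart tube levels above the caudal tissue, where Zfyve16 was within the bacterial range, and Tgif1 also above the yolk sac (1.06). Msx1, a BMP target, was ordered as Smad7 was, with called differences of 1.81, 4.27 and 2.46. The yolk sac was below the heart tube and the caudal tissue in Bmp1, a protease that cleaves the antagonist chordin (1.40 and 0.79), Fbn2, fibrillin of the matrix (2.35 and 1.83), and Hey1 (1.05 and 1.72). Crim1, lower in the heart tube than the yolk sac (-1.16), and Kcp, higher (1.86), complete the calls and were named after their values were seen. Vasn was lower in caudal tissue than in the yolk sac (-1.61), whereas Tgif2 (1.05) and Strap (0.88) were higher. None of the 5 measured other receptor genes was called by limma in any comparison, and 1, 2 and 1 had an unadjusted p under 0.05.

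The calls differ in how much they rest on single arrays. Of the 14 members called between heart tube and caudal tissue, 6 stayed called without replicate 1 of the heart tube, 7 without replicate 2, 7 without replicate 1 of the caudal tissue and 9 without replicate 2, and Bmpr1a, Acvrl1, Tgfbi, Bmper and Ltbp1 stayed called whichever array was left out. Of the 18 called between heart tube and yolk sac, Tgfb3, Tgfbi and Fst lost their call without at least 1 array and the other 15 did not. Of the 13 called between caudal tissue and yolk sac, 4 stayed called without replicate 1 of the caudal tissue, 7 without replicate 1 of the yolk sac and 8 without its replicate 2. Without replicate 2 of the caudal tissue 7 were called, 2 of them not called before. Tgfbr2 and Pmepa1 stayed called throughout. The calls of Eng and Tgfbr3 in that comparison were lost without any 1 of the 6 arrays. No called difference changed sign when an array was left out.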

How the data were processed

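RNA of 6 mouse samples was measured on Affymetrix arrays. The authors computed the deposited intensity values with RMA (affy), per the submitters' processing notes, and no version or chip definition was stated there. RMA brings all arrays to 1 distribution, so a shift shared by most genes would not be seen. The deposited values reach 21.1 as log2, above the limit of a scanner (65535 on the linear scale), and 0.90 to 14.6 as natural log, which was read as RMA log2. That reading is an assumption about scale. Precision is limited by having 2 arrays per tissue, with a median SE of 0.21 and smallest calls at 0.64 to 0.73.

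Of 45101 probe sets, 34958 carry 1 gene symbol in the platform annotation, 932 several and 9211 none. Without controls, the brightest singly named probe set over the 6 arrays stood for each of 18193 genes. All 6 arrays entered 1 model of tissue in limma 3.58.1 under R 4.3.3 (lmFit, eBayes; 3 residual and 3.48 prior degrees of freedom), two-sided, with Benjamini-Hochberg adjustment over all genes. No filter was applied. The fit was tested on simulated data. Members, classes, marker lists and motifs were chosen with earlier results of these data known. All members called are named, as are at most 3 called genes per class and comparison of other pathway genes, largest difference first, apart from Crim1 and Kcp. Groups follow the sample titles. Same-numbered replicates are not described as paired. Alternatives were another scale, all probe sets averaged, a filter on dim genes, repeated quantile normalization, a trended robust spread, only the tissues compared, a replicate block, and each array left out.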

Additional observations from a re-analysis of the deposited data

How the results depend on the processing

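The 3 counts of called members stayed within 1.5 times of the reported 14, 18 and 13 under the log2 scale, averaged probe sets, the filter on dim genes, repeated normalization, trended spread, the fit of the compared tissues alone and the replicate block, with ranges of 14 to 18, 17 to 22 and 11 to 16. The same held for the 18 members called against both other tissues (17 to 23). Leaving out 1 array gave 6 to 14, 15 to 18 and 4 to 11, and 9 to 16 against both tissues, with 11 without the first heart tube array and 9 without the first caudal array. With the replicate block, members called were 15, 17 and 12. Other pathway genes called between caudal tissue and yolk sac fell from 7 to 4 with the replicate block and to 4 with the compared tissues alone. Leaving out 1 array gave 2 to 8, 5 to 9 and 3 to 4 of them in the 3 comparisons. Replicate differences of the 3 tissues correlated over genes at 0.05, -0.01 and 0.02, all under 0.1, so the samples were not treated as paired by number.

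Of 45 called member differences, 22 kept their call without each array and 37 under all other settings. Those lost elsewhere were both Inhba calls, Bmpr1a, Smad3 and Tgfb1 (caudal tissue against yolk sac) with averaged probe sets, Tgfb3 and Tgfb1 with the replicate block, and Tgfb3, Eng and Tgfbr3 with the compared tissues alone. Tgfb3 was also left out by the filter on dim genes. A dimmer probe set of the gene had the other sign, without a call, for Inhba (-0.35 and -0.63 in the heart tube comparisons), Tgfbr2 (0.21 and 0.17 against the yolk sac), Bmpr1a (-0.11) and Pmepa1 (-0.039, both caudal tissue against yolk sac). The cause was not tested.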

Other observations

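2 further pairs of members are neighbouring protein-coding genes in the GRCm38.p6 gene table: Acvrl1 and Acvr1b on chromosome 15, and Tgfbi and Smad5 on chromosome 13. Acvrl1 was called in all 3 comparisons and Acvr1b in none (-0.03, -0.24 and -0.21 in the order of the report), and Tgfbi was called in both heart tube comparisons while Smad5 was not (0.15 and 0.52). Whether the members of a pair differ from each other was not tested.

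The hybridisation control probe sets were higher on the first than on the second array of each tissue, on average by 0.23, 0.44 and 0.40 for heart tube, caudal tissue and yolk sac. The part of this in the results was not tested, and the replicate block left 43 of the 45 called member differences called.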
